A study of Mus musculus with 3 samples.

Results

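The genes described here are 35 genes of glucose uptake, glycolysis, lactate handling and the response to low oxygen, measured in activated mouse CD4 T cells. They were selected by gene symbol, and each symbol had 1 row among the 23282 gene rows of the data. Of the 35 genes, 34 had enough reads to be tested, among 12770 rows tested in all. The source was C57BL/6 mice (C57BL/6J, female and 6 to 8 weeks old by the study's methods), whose lymph node and spleen CD4 T cells were isolated with magnetic beads or a cell sorter. All groups received anti-CD3 and anti-CD28 antibodies at 2 µg/ml and were kept in culture for 72 h. Complete medium (CM) was RPMI-1640 with 10% fetal bovine serum. Dialyzed medium (DM) was RPMI-1640 without amino acids, with 10% serum depleted of small molecules by dialysis. The study measured methionine in DM and reports that some was present, so DM was low in methionine and not free of it. In DM+Met, 30 µM methionine was added to DM, so that DM+Met and DM differ by the added methionine, whereas DM and CM differ by many nutrients at once. Each medium had 2 libraries of 3′-end RNA sequencing. The study states 2 biologically independent samples per medium. In the data each medium is 1 sample that holds both libraries. The labels do not say whether the 2 libraries came from separate mice or cultures, so the tests measure the spread between these libraries.

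T cells that are activated through the antigen receptor take up more glucose and pass much of it through glycolysis to lactate, even when oxygen is present. Glucose enters through transporters of the SLC2A family, is phosphorylated by hexokinase, is committed to breakdown by phosphofructokinase, and leaves as lactate after lactate dehydrogenase has regenerated NAD+. Many of these genes are targets of hypoxia-inducible factor 1 (HIF-1), whose α subunit is hydroxylated by oxygen-dependent prolyl hydroxylases, the EGLN enzymes, bound by the VHL ubiquitin ligase and degraded. HIF-1α is also known to accumulate in activated T cells in normal oxygen, and Egln3, Bnip3 and Ndrg1 are among its usual target genes. The data hold RNA levels only.

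Depth was 8504742 to 12377285 reads per library. Rn45s, the 45S precursor of ribosomal RNA, accounted for 31.98% ± 1.33 (SD, n = 2) of CM reads, 37.75% ± 0.780 of DM reads and 17.76% ± 3.25 of DM+Met reads. Levels are log2 of CPM plus 1, where CPM are reads relative to the library's total after TMM scaling. Cd3e and Cd4, which define the labelled cells, were read in all 6 libraries (log2 levels 6.48 to 7.53 and 7.35 to 8.12). The 10 T cell markers summed to 2211 to 2391 CPM (CM), 2723 to 3104 CPM (DM) and 2946 to 2977 CPM (DM+Met). The 8 CD8 T and NK cell markers summed to 66.5 to 79.3, 36.5 to 40.3 and 31.6 to 45.3 CPM, with Ncr1 at 0 in 3 libraries, and the 8 erythroid markers to 124.9 to 126.9, 49.4 to 93.7 and 27.3 to 31.2 CPM, with Alas2 at 0 in DM+Met 2. The 8 B cell markers summed to 76.3 to 91.7, 87.8 to 96.6 and 64.2 to 82.3 CPM, with Pax5 at 0 in all 6, and the 13 myeloid markers found to 130.4 to 163.5, 139.4 to 235.5 and 198.8 to 201.7 CPM, with Clec9a at 0 in all 6. Of these markers, Cd8a was lower in DM (log2 fold change −1.72, adjusted p 0.0323) and in DM+Met (−1.76, adjusted p 0.0317) than in CM, 1 other of the 5 tested CD8 T and NK cell markers was higher in DM+Met than in CM, and 5 of 6 tested erythroid markers were lower in DM+Met than in CM. Higher than in CM were also 3 of 10 T cell, 1 of 7 tested B cell and 1 of 9 tested myeloid markers in DM, and 2 T cell markers and 1 B cell marker in DM+Met. The B cell marker was Fcer2a (3.05 in DM, 2.30 in DM+Met), and the T cell markers were Cd5 (1.42, 1.13), Cd2 (0.84, 0.96) and, in DM alone, Cd3g (0.72). Over all rows, 9.07% were called lower and 7.8% higher in DM than in CM, and 8.36% and 6.92% in DM+Met than in CM. No marker of these 5 lists was called in DM+Met against DM, where 0.0548% of all rows were called. With so few calls, this cannot show whether the cell make-up differed. The median log2 fold changes there were −0.05 (T cell), −0.23 (B cell), 0.36 (CD8 T and NK cell), −0.04 (myeloid) and −0.95 (erythroid markers). The part of other cells in the results below was not tested. For the Rn45s share, values by library totals without Rn45s are given below, and its part was not tested further. DM 1 and DM 2 differed from each other more than the libraries of the other media did (chi-square per degree of freedom 35.9, against 19 in CM and 18.2 in DM+Met). In bulk RNA, fewer cells of a type and less RNA per cell cannot be told apart.

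As a group, the 35 genes took a smaller share of the RNA in DM than in CM, and a smaller share again in DM+Met. Of all reads other than Rn45s, CM libraries gave them 1.43% ± 0.0725 (SD, n = 2), DM libraries 0.996% ± 0.0234 and DM+Met libraries 0.642% ± 0.000432. The libraries of the 3 media did not overlap in this share. It weighs each gene by its reads, and Aldoa and Pkm were read most. In CM 1 these genes gave 16899 and 12770 of 90217 member reads. An exact permutation test of 2 libraries against 2 cannot give a p below 0.333, so no test of the share is given. Within a medium the median gap of the members between the 2 libraries was 0.19 (CM), 0.26 (DM) and 0.12 (DM+Met) on the log2 scale, against 0.39, 0.47 and 0.26 over all rows tested. The largest gaps were 2.64 for Pfkfb4 in CM, 2.46 for Adm in DM and 0.81 for Adm in DM+Met. The plot of levels by library shows all 35 members.

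**Figure D1:**
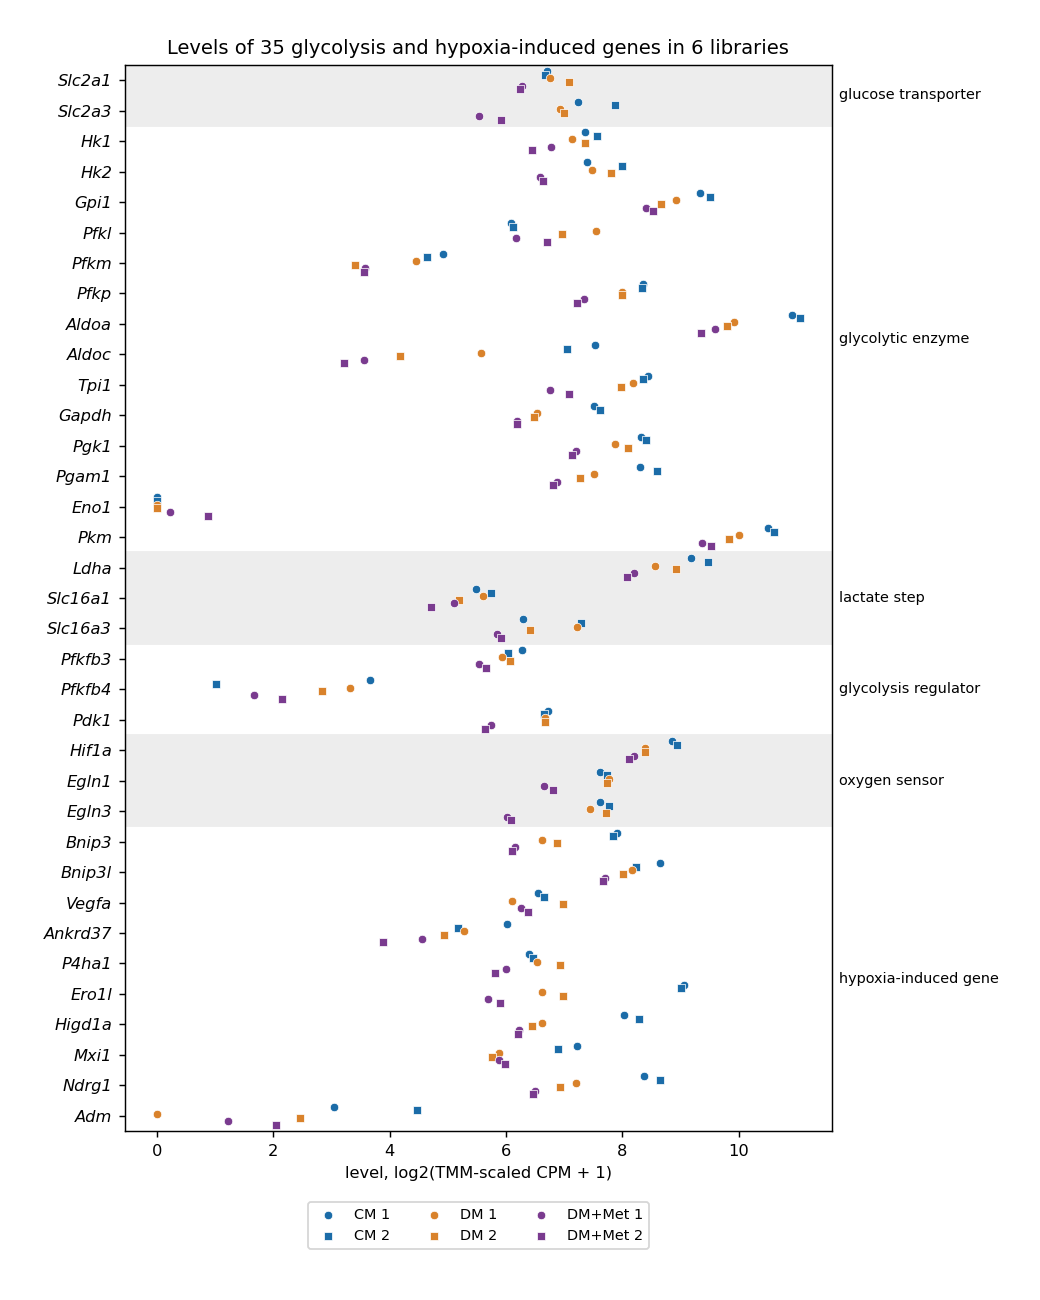
Level of each of the 35 genes in each library, as log2(TMM-scaled CPM + 1) on the x axis, with genes grouped by role on the y axis. Colour gives the medium and symbol shape the library number, with small vertical offsets to separate points. Ero1l lies near 9 in both CM libraries, between 6.61 and 6.98 in DM and between 5.68 and 5.89 in DM+Met, and Pfkl lies highest in DM.

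Between DM and CM, 13 of the 34 tested members were lower in DM and 1 was higher (limma on the log2 values, Benjamini-Hochberg adjusted p below 0.05 over all rows). These are 38.2% and 2.94% of members, where 9.07% and 7.8% of all rows were called lower and higher, 16.9% in all. In all 3 comparisons the median standard error was 0.185 for the members and 0.439 over all rows. Calls, unadjusted p and lack of overlap depend on this spread, and the shares given here and below were not matched for it. Among the called genes the greatest falls were in the aldolase gene Aldoc, in the oxidase gene Ero1l and in the mitochondrial gene Higd1a, and the gene that rose was the phosphofructokinase gene Pfkl. Both DM libraries lay below both CM libraries for 20 members (58.8%, against 26.2% of all rows) and above them for 3 (8.82%, against 27.9%). Of any size, 28 members were lower (82.4%, against 47.2% of all rows), and 18 passed an unadjusted p of 0.05 (52.9%, against 32.7%). The median log2 fold change of the members was −0.43, against 0.07 over all rows, and by library totals without Rn45s these were −0.28 and 0.21. Of the 14 calls, 5 held when each of the 6 libraries was left out in turn, those of Ero1l, Higd1a, Ndrg1, Aldoa and Gapdh. Leaving out a library also removes a residual degree of freedom. Without a trend of the variance on expression level, 6 members were called and the calls of Aldoa (adjusted p 0.0506) and Gapdh (0.0509) were lost. The study itself displayed Hk2, Pfkm, Pkm, Pfkp, Pfkfb3, Pfkfb4, Gapdh and Ldha as glycolysis genes from these libraries, so their direction here is not independent evidence. It states that glycolysis genes were reduced in DM, although the caption of that display names CM and tumor-conditioned medium. Of these genes, Hk2, Pfkfb3 and Pfkfb4 overlapped between DM and CM here, and the others lay lower in both DM libraries.

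Between DM+Met and DM, 1 of the 34 tested members was called, the prolyl hydroxylase gene Egln3, which was lower in DM+Met. This is 2.94% of members, where 0.0548% of all rows were called, 7 rows, 0.0157% lower and 0.0392% higher. Both DM+Met libraries lay below both DM libraries for 30 members (88.2%, against 20.6% of all rows) and above them for 1 (2.94%, against 20.4%). Of any size, 32 members were lower (94.1%, against 49.0% of all rows). At an unadjusted p below 0.05 there were 23 members (67.6%, against 9.69% of all rows), which became 10 by library totals, 12 without the variance trend and 14 without DM+Met 2. The median log2 fold change was −0.63 for the members and 0.01 over all rows. Scaling by library totals in place of TMM moved the median of all rows to 0.34 and that of the members to −0.27. The difference from all rows was then −0.61, where it had been −0.64. By library totals without Rn45s the medians were −0.02 for all rows and −0.67 for the members. In that setting 24 members had an unadjusted p below 0.05 and 1 was called. With a filter of at least 10 reads in every library, 5 members were called. The Egln3 call was lost when any 1 library was left out, with log2 fold changes from −1.67 to −1.40 and adjusted p from 0.155 to 0.834. The DM libraries enter this comparison and the one before it.

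Between DM+Met and CM, 24 of the 34 tested members were lower in DM+Met and 0 were higher (70.6% and 0.0% of members, against 8.36% and 6.92% of all rows). Both DM+Met libraries lay below both CM libraries for 32 members (94.1%, against 28.7% of all rows), and Pfkl was the 1 member above (2.94%, against 32.2%). For Pfkfb4 the libraries overlapped. In either direction 15.3% of all rows were called. Of any size, 33 members were lower (97.1%, against 46.4%), and 31 passed an unadjusted p of 0.05 (91.2%, against 30.3%). The median log2 fold change was −1.12, against 0.06 over all rows. By library totals these were −0.72 and 0.41, and 19 members were called. Of the 24 calls, 12 held when each library was left out in turn, and without the variance trend 12 members were called. The CM and DM+Met libraries are those of the other 2 comparisons.

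**Figure D2:**
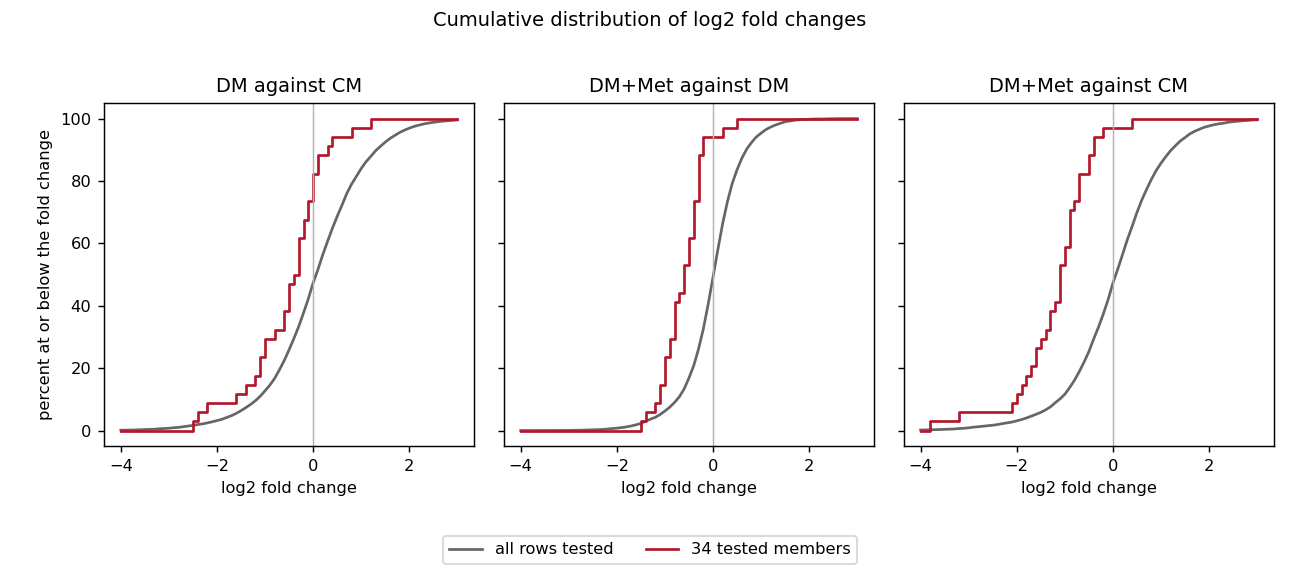
Cumulative percent of genes (y axis) at or below a log2 fold change (x axis) in each comparison, for the 34 tested members (red) and for all 12770 rows tested (grey). The members' curve lies left of the curve of all rows over most of its range, with differences of −0.50, −0.64 and −1.18 between the medians.

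Promoter sequences are given for 5 members. Egln3 was the gene called after methionine, Ero1l and Higd1a are hypoxia-induced genes with large falls in DM, Ldha is the classical HIF-1 target of glycolysis, and Pfkl moved the opposite way in DM. The windows run from 250 bases before to 50 bases after the start site in RefSeq (GRCm38.p6, the assembly also called mm10 that the submitters' processing notes name), and 32 of the 35 genes had at least 1 window. Slc2a3, Bnip3l and Ndrg1 had none, and Ero1l was listed as Ero1a. Capitals mark ACGTG and GCGTG, the core letters of the hypoxia response element, and their reverse complements CACGT and CACGC. A palindromic CACGTG counts on both strands and is also the E-box, the motif of MYC and MondoA, so the 2 motifs overlap there. In order, the windows are at chr12:54203825-54204124, minus strand, chr14:45318523-45318822, minus strand, chr9:121857747-121858046, minus strand, chr7:46845554-46845853, plus strand (the first of 2 for this gene), and chr10:78009758-78010057, minus strand, each printed 5′ to 3′ on its gene's strand.
Egln3: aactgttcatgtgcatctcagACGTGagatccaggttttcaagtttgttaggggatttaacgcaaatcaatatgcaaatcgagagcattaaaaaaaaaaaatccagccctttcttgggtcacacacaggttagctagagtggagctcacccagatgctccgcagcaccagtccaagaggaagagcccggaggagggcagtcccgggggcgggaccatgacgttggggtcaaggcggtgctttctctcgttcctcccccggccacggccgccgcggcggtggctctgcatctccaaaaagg
Ero1l: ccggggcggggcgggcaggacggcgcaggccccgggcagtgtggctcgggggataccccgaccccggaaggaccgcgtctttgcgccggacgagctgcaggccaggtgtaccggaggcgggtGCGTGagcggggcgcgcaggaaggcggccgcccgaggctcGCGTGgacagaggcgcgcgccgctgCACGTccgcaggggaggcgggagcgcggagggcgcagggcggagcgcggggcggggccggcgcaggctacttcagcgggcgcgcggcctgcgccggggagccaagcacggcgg
Higd1a: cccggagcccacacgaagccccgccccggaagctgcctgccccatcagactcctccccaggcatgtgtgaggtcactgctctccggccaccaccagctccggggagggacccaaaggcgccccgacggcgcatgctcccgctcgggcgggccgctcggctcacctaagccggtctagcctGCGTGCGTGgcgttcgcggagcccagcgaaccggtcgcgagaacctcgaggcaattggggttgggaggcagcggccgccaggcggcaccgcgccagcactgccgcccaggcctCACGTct
Ldha: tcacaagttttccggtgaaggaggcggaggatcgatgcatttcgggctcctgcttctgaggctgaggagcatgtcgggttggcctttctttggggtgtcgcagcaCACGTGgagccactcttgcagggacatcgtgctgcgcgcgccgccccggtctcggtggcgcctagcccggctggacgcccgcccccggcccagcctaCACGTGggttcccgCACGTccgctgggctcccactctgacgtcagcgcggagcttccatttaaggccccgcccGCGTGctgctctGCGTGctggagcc
Pfkl: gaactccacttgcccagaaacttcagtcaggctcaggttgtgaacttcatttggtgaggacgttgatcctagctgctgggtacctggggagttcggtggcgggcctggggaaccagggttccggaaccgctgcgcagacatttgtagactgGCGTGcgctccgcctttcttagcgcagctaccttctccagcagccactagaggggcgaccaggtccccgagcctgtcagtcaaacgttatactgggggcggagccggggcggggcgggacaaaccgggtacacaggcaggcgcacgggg
The letters occurred 1 time in the Egln3 window, 3 times in those of Ero1l and Higd1a, 7 times in that of Ldha and 1 time in that of Pfkl, counted on both strands. Of the 32 members with a window, 30 held at least 1 match in any of their windows (93.8%), and Gpi1 and Tpi1 held none. Over all 27025 genes of the table the share was 46.7%. By window, 39 of 48 member windows (81.2%) and 43.8% of all 32851 windows held a match. The genes of the table were not limited to those tested here, and the sets were not matched for base composition. A match is a string of letters and not a measured binding site, and a number of the members were chosen because they are known HIF-1 targets.

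The glucose transporter genes were Slc2a1, which encodes GLUT1, the main transporter of activated T cells, and Slc2a3, which encodes the high-affinity transporter GLUT3. Slc2a1 levels were 6.70 and 6.67 (CM), 6.75 and 7.08 (DM) and 6.28 and 6.24 (DM+Met). Its DM libraries lay above both CM libraries by a log2 fold change of 0.23 (0.40 without DM 1 and 0.07 without DM 2), and its DM+Met libraries lay below both other media (−0.66 against DM, −0.43 against CM), with none of these called. Slc2a3 levels were 7.23 and 7.87 (CM), 6.93 and 7.002 (DM) and 5.53 and 5.91 (DM+Met). Slc2a3 was lowest in DM+Met, and its log2 fold change against CM was −1.83 (SE 0.24, adjusted p 0.00107). It was −0.58 in DM against CM and −1.25 in DM+Met against DM, which were not called, although the second was called with at least 10 reads required in every library (adjusted p 0.0442). The call against CM was lost without DM+Met 1 (−1.65, adjusted p 0.0518). Slc2a1 made up 35.5% ± 7.54 (SD, n = 2) of the reads of the pair in CM, where DM had 49.1% ± 3.22 and DM+Met 59.3% ± 4.98, and the libraries of the 3 media did not overlap in that share. The reads of a 3′-end library count transcript ends, so shares within a family are shares of reads and were not divided by transcript length.

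Hexokinase phosphorylates glucose on entry, and of its genes Hk1 is the constitutive and Hk2 the inducible form. Hk2 levels were 7.39 and 7.99 (CM), 7.48 and 7.81 (DM) and 6.58 and 6.63 (DM+Met). Hk1 levels were 7.36 and 7.57 (CM), 7.14 and 7.36 (DM) and 6.77 and 6.44 (DM+Met). Both genes overlapped between DM and CM and were lower in DM+Met than in CM, by a log2 fold change of −1.08 (SE 0.22, adjusted p 0.00955) for Hk2 and −0.86 (SE 0.19, adjusted p 0.014) for Hk1. Against DM the values were −1.04 and −0.65, not called. The call of Hk2 against CM was lost without CM 2 (−0.78), DM 1, DM 2 (−1.08 in both), DM+Met 1 (−1.06) or DM+Met 2 (−1.11). That of Hk1 was lost without CM 1 (−0.96), CM 2 (−0.76), DM+Met 1 (−1.02) or DM+Met 2 (−0.70), and also by library totals (−0.47, adjusted p 0.118).

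Among the phosphofructokinase genes, which encode the committed step of glycolysis, the liver-type gene Pfkl was the member that rose in DM. Pfkl levels were 6.08 and 6.12 (CM), 7.55 and 6.96 (DM) and 6.17 and 6.71 (DM+Met). Both DM libraries lay above the other 4, and the log2 fold change of DM against CM was 1.16 (SE 0.25, adjusted p 0.0137), an increase of 2.23-fold. The DM+Met value of Pfkl was −0.82 against DM and 0.34 against CM, without a call in either. The platelet-type gene Pfkp, the most read of the 3, had levels of 8.36 and 8.34 (CM), 7.99 and 7.99 (DM) and 7.34 and 7.22 (DM+Met). It was lower in DM than in CM in both libraries (−0.37, not called), lower after methionine (−0.71, not called), and lower in DM+Met than in CM with a log2 fold change of −1.07 (SE 0.15, adjusted p 0.00129). That call was lost without DM+Met 2 (−1.01, adjusted p 0.0522). The muscle-type gene Pfkm had 109 to 258 reads per library, and was −0.85 for DM and −1.22 for DM+Met, each against CM, neither called. Its DM value was −1.38 without DM 1 and −0.33 without DM 2.

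The make-up of the phosphofructokinase reads differed between CM and the dialyzed media, while their summed level overlapped between CM and DM. The 3 genes summed to 424 and 416 CPM (CM), 459 and 386 CPM (DM) and 242 and 262 CPM (DM+Met). Pfkl gave 15.7% of these reads (Wilson 95% interval 14.6 to 16.9) in CM 1 and 16.5% (15.2 to 17.8) in CM 2. In DM 1 it gave 40.5% (39.0 to 41.9) and in DM 2 32.1% (30.7 to 33.5). In DM+Met 1 it gave 29.2% (27.6 to 30.9) and in DM+Met 2 39.5% (37.8 to 41.2). The dialyzed media overlapped each other and lay above both CM libraries, and the intervals cover counting error only. The Pfkl call in DM was lost without CM 1 (1.14), CM 2 (1.18), DM 1 (0.86) or DM 2 (1.45), while its direction held.

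**Figure D3:**
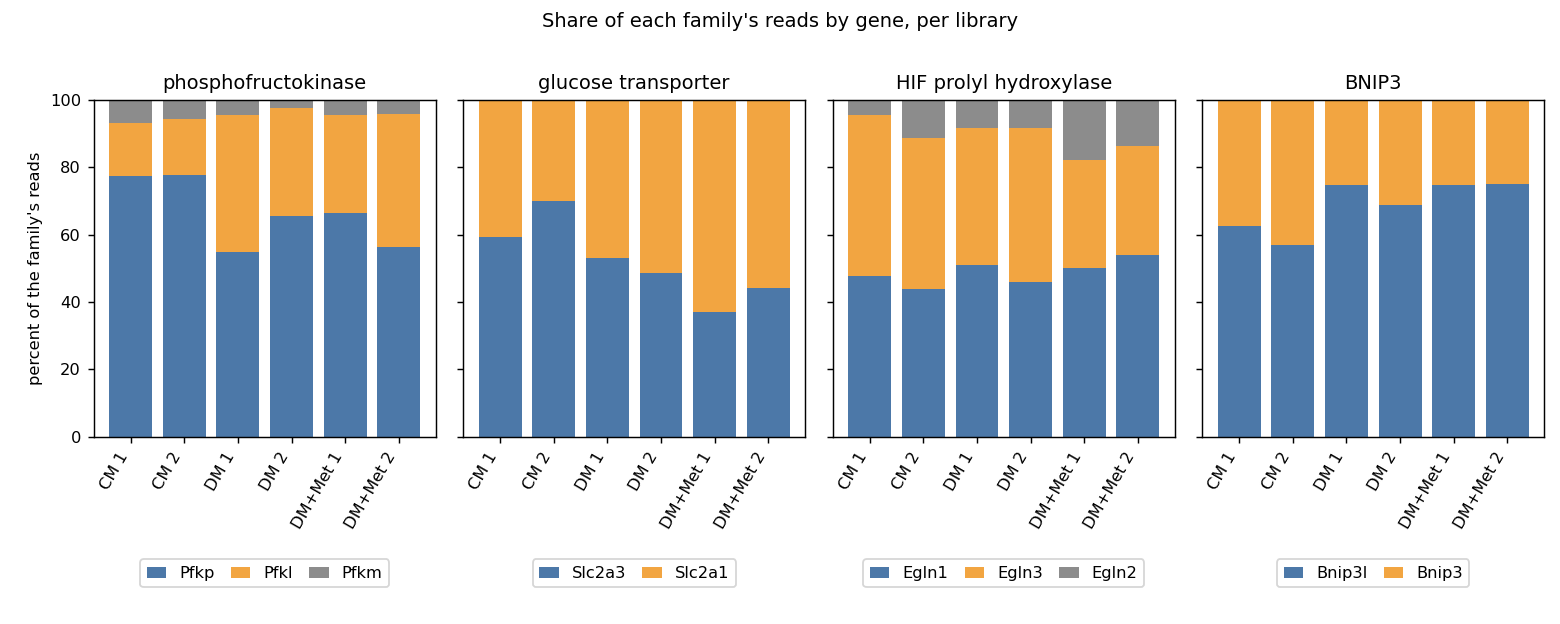
Percent of the reads of 4 gene families (y axis, from 0 to 100) that came from each gene, in each of the 6 libraries (x axis). Each bar is 1 library, and colours mark genes. Pfkl gives 15.7% and 16.5% of phosphofructokinase reads in CM and between 29.2% and 40.5% in the other 4 libraries, and Egln3 has its smallest share in DM+Met.

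The aldolase genes Aldoa and Aldoc, whose enzyme splits fructose bisphosphate, fell in DM. Aldoa levels were 10.91 and 11.05 (CM), 9.93 and 9.81 (DM) and 9.58 and 9.35 (DM+Met). Aldoc levels were 7.53 and 7.04 (CM), 5.58 and 4.18 (DM) and 3.55 and 3.22 (DM+Met). For both genes the 3 media did not overlap, with CM highest and DM+Met lowest. Aldoa, the most read member, had a log2 fold change of −1.11 (SE 0.14, adjusted p 0.00128) for DM and −1.52 (SE 0.14, adjusted p 0.000184) for DM+Met, each against CM. Aldoc had −2.41 (SE 0.42, adjusted p 0.00517) in DM and −3.90 (SE 0.42, adjusted p 0.000386) in DM+Met, from 1609 and 1021 reads in CM to 128 and 99 in DM+Met. Against DM, DM+Met stood at −0.40 for Aldoa and −1.49 for Aldoc, not called. Aldoc gave 7.25% ± 2.04 (SD, n = 2) of the reads of the pair in CM, where DM had 3.23% ± 1.91 and DM+Met 1.32% ± 0.0820. The DM call of Aldoc was lost without CM 1 (−2.16), CM 2 (−2.65) or DM 2 (−1.71).

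The isomerase gene Gpi1 and the triose genes Tpi1, Gapdh, Pgk1 and Pgam1 form the middle of the pathway. Gpi1 levels were 9.34 and 9.51 (CM), 8.92 and 8.66 (DM) and 8.40 and 8.52 (DM+Met). Gapdh, whose enzyme makes NADH, had levels of 7.51 and 7.62 (CM), 6.54 and 6.49 (DM) and 6.20 and 6.19 (DM+Met). Pgam1, a mutase gene, had levels of 8.30 and 8.59 (CM), 7.52 and 7.28 (DM) and 6.87 and 6.81 (DM+Met). These 3 genes fell in DM, with a log2 fold change of −0.63 (SE 0.15, adjusted p 0.0198), −1.05 (SE 0.17, adjusted p 0.0039) and −1.05 (SE 0.17, adjusted p 0.00389), and both DM libraries lay below both CM libraries in each. For DM+Met against CM, they stood at −0.96 (SE 0.15, adjusted p 0.00263), −1.37 (SE 0.17, adjusted p 0.000879) and −1.61 (SE 0.17, adjusted p 0.000364). Against DM they were −0.33, −0.32 and −0.56 and not called, and by library totals Gpi1 and Gapdh turned to 0.04 each. Tpi1 and Pgk1 were not called in DM.

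Tpi1 levels were 8.43 and 8.35 (CM), 8.18 and 7.97 (DM) and 6.76 and 7.08 (DM+Met). Pgk1, whose enzyme gives the first ATP of glycolysis, had levels of 8.32 and 8.40 (CM), 7.88 and 8.10 (DM) and 7.20 and 7.13 (DM+Met). In both genes the 3 media did not overlap. Tpi1 stood at −0.32 in DM against CM (not called), −1.16 in DM+Met against DM (adjusted p 0.056, not called) and −1.47 (SE 0.17, adjusted p 0.000536) in DM+Met against CM. Pgk1 stood at −0.37 and −0.83, neither called, and −1.20 (SE 0.15, adjusted p 0.001). Tpi1 was called between DM+Met and DM with at least 10 reads required in every library (adjusted p 0.00774), with a pseudocount of 5 (0.0368) and in limma-voom (0.0177). Among these genes the DM call of Gpi1 was lost without any 1 of the 6 libraries (−0.76 to −0.51) and by library totals without Rn45s (−0.48, adjusted p 0.0566), and that of Pgam1 without CM 2 (−0.90) or DM 2 (−0.93). The DM+Met call of Gpi1 against CM was lost without DM+Met 1 (−0.90) or DM+Met 2 (−1.02).

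Pkm encodes pyruvate kinase, the last step to pyruvate, and its 2 splice forms cannot be told apart in these gene rows. Pkm levels were 10.51 and 10.61 (CM), 10.01 and 9.84 (DM) and 9.38 and 9.52 (DM+Met). The 3 media did not overlap, and the log2 fold change was −0.64 (SE 0.14, adjusted p 0.0129) for DM and −1.11 (SE 0.14, adjusted p 0.000772) for DM+Met, each against CM, and −0.47 in DM+Met against DM, which was not called. The DM call was lost without CM 1 (−0.69), CM 2 (−0.59), DM 2 (−0.55), DM+Met 1 or DM+Met 2 (−0.64 in both). The Eno1 row, for enolase, was listed at 0 in CM and DM and held 2 and 10 reads in DM+Met, so it was not tested. Instead, 2 rows named Eno1b, a near-identical copy, held 1499 to 2371 reads per library. Summed with the Eno1 row they stood at 8.99 and 8.99 (CM), 8.27 and 8.34 (DM) and 8.04 and 8.14 (DM+Met). Reads of Eno1 and Eno1b cannot be told apart here. Gapdh, Ldha, Pgam1, Tpi1, Pgk1 and Aldoa also have processed copies in the genome, and the counting could have split their reads. For Aldoa, the copy rows Aldoart1 and Aldoart2 held 35 to 126 and 4 to 47 reads per library. With these summed into Aldoa, DM against CM stood at −1.11 (limma adjusted p 0.00127).

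At the lactate step, Ldha encodes the lactate dehydrogenase subunit that favours lactate, and Slc16a1 and Slc16a3 encode the lactate carriers MCT1 and MCT4. Ldha levels were 9.19 and 9.48 (CM), 8.56 and 8.92 (DM) and 8.21 and 8.07 (DM+Met). Slc16a3 levels were 6.29 and 7.29 (CM), 7.21 and 6.41 (DM) and 5.85 and 5.92 (DM+Met). The media did not overlap for Ldha, whereas CM and DM overlapped for both carriers and DM+Met was lowest in all 3 genes. Ldha had a log2 fold change of −0.59 (SE 0.17, adjusted p 0.0407) for DM and −1.19 (SE 0.17, adjusted p 0.00168) for DM+Met, each against CM. In DM+Met, Slc16a3 stood at −0.93 against DM and −0.90 against CM, Slc16a1 at −0.49 and −0.70, and Ldha at −0.60 against DM, none of them called. The DM call of Ldha was lost without any 1 of the 6 libraries, with values from −0.77 without DM 2 to −0.41 without DM 1, and by library totals (−0.56, adjusted p 0.0538). Its DM+Met call was lost without DM+Met 2 (−1.12).

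The regulators were Pfkfb3 and Pfkfb4, whose enzymes set fructose 2,6-bisphosphate, the activator of phosphofructokinase, and Pdk1, whose kinase closes pyruvate dehydrogenase. Pfkfb3 levels were 6.27 and 6.04 (CM), 5.92 and 6.06 (DM) and 5.54 and 5.65 (DM+Met). Pdk1 levels were 6.72 and 6.65 (CM), 6.66 and 6.67 (DM) and 5.74 and 5.64 (DM+Met). CM and DM overlapped in both genes, and both DM+Met libraries lay below the other 4. Pdk1 fell in DM+Met against CM with a log2 fold change of −0.99 (SE 0.19, adjusted p 0.00662), and stood at −0.97 against DM (adjusted p 0.167, not called). Pfkfb3 stood at −0.40 against DM and −0.55 against CM, not called. Pfkfb4 was read least of the 3, with 102 and 8 reads in CM, and was −1.17 in DM+Met against DM, not called. The Pdk1 call was lost without CM 1 (−0.96), DM+Met 1 (−1.04) or DM+Met 2 (−0.95), and by library totals (−0.60, adjusted p 0.0503).

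The oxygen-sensing genes did not share one order of media. Hif1a, which encodes the oxygen-regulated subunit of HIF-1, had levels of 8.85 and 8.95 (CM), 8.38 and 8.40 (DM) and 8.19 and 8.12 (DM+Met). Egln1, which encodes the main HIF prolyl hydroxylase PHD2, had levels of 7.62 and 7.74 (CM), 7.77 and 7.73 (DM) and 6.66 and 6.81 (DM+Met). Egln3, which encodes PHD3 and is itself a HIF-1 target, had levels of 7.62 and 7.77 (CM), 7.45 and 7.72 (DM) and 6.01 and 6.09 (DM+Met). Hif1a was lower in DM than in CM in both libraries, while the CM and DM libraries overlapped for Egln1 and Egln3, and all 3 genes were lowest in DM+Met. For Hif1a the log2 fold change was −0.51 (SE 0.14, adjusted p 0.0314) for DM and −0.74 (SE 0.14, adjusted p 0.00614) for DM+Met, each against CM, and −0.24 in DM+Met against DM, which was not called and turned to 0.13 by library totals. Egln3 fell after methionine was added to DM, with a log2 fold change of −1.53 (SE 0.18, adjusted p 0.0149) or 2.90-fold, with 1704 and 2377 reads in DM and 757 and 800 in DM+Met. Against CM it was −1.65 (SE 0.18, adjusted p 0.000362). Egln1 stood at −1.01 in DM+Met against DM (adjusted p 0.0747, not called) and −0.95 (SE 0.16, adjusted p 0.00402) against CM.

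With Egln2, the third of these enzymes and not a member, the prolyl hydroxylase genes summed to 410 and 486 CPM (CM), 426 and 460 CPM (DM) and 199 and 207 CPM (DM+Met). Egln3 gave 46.3% ± 1.96 (SD, n = 2) of their reads in CM, where DM had 43.2% ± 3.42 and DM+Met 32.2% ± 0.495, with DM+Met below all other libraries. Egln1 was called against DM with at least 10 reads required in every library (adjusted p 0.0227) and in limma-voom (0.0278). The Egln1 call against CM was lost without DM+Met 1 (−0.87) or DM+Met 2 (−1.02). The Hif1a call in DM was lost without any 1 library (−0.56 to −0.46), and its DM+Met call without CM 1 (−0.79), CM 2 (−0.70), DM+Met 1 (−0.78) or DM+Met 2 (−0.71). By library totals both Hif1a calls were lost (−0.48, adjusted p 0.051, and −0.35, adjusted p 0.115).

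Of the 10 hypoxia-induced genes, 5 fell in DM, where 9.07% of all rows were called lower, and Ero1l changed most among those called. Ero1l, which encodes an oxidase that forms disulfide bonds in the endoplasmic reticulum, had levels of 9.06 and 9.001 (CM), 6.61 and 6.98 (DM) and 5.68 and 5.89 (DM+Met). Higd1a, for a protein of the mitochondrial inner membrane, had levels of 8.03 and 8.28 (CM), 6.61 and 6.45 (DM) and 6.22 and 6.21 (DM+Met). Ndrg1, a stress-induced gene, had levels of 8.37 and 8.65 (CM), 7.21 and 6.92 (DM) and 6.50 and 6.47 (DM+Met). In all 3 genes every DM and DM+Met library lay below both CM libraries and DM+Met lay below DM. The log2 fold changes in DM against CM were −2.23 (SE 0.18, adjusted p 0.000139), −1.62 (SE 0.18, adjusted p 0.000572) and −1.45 (SE 0.18, adjusted p 0.00109), so Ero1l fell 4.70-fold. In DM+Met against CM they were −3.24 (SE 0.18, adjusted p 1.74e-05), −1.94 (SE 0.18, adjusted p 0.000171) and −2.03 (SE 0.18, adjusted p 0.00015). Against DM they were −1.01, −0.32 and −0.58, not called, and the second turned to 0.05 by library totals. Ero1l was called there with at least 10 reads required in every library (adjusted p 0.0442).

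Bnip3 and Bnip3l encode related proteins that mark mitochondria for autophagy, and Mxi1 encodes a repressor that competes with MYC for MAX. Bnip3 levels were 7.90 and 7.83 (CM), 6.61 and 6.88 (DM) and 6.15 and 6.10 (DM+Met). Bnip3l levels were 8.65 and 8.23 (CM), 8.17 and 8.01 (DM) and 7.70 and 7.67 (DM+Met). Mxi1 levels were 7.22 and 6.89 (CM), 5.88 and 5.77 (DM) and 5.89 and 5.98 (DM+Met). Bnip3 and Mxi1 fell in DM, with a log2 fold change of −1.12 (SE 0.18, adjusted p 0.0032) and −1.23 (SE 0.20, adjusted p 0.00416), while Bnip3l stood at −0.35 and was not called. For DM+Met against CM, the values were −1.74 (SE 0.18, adjusted p 0.000271) for Bnip3, −1.12 (SE 0.20, adjusted p 0.0059) for Mxi1 and −0.76 (SE 0.17, adjusted p 0.0165) for Bnip3l. Mxi1 was the 1 member whose DM+Met libraries both lay above both DM libraries (0.11), against −0.62 for Bnip3 and −0.40 for Bnip3l, all not called. Bnip3 gave 40.2% ± 4.06 (SD, n = 2) of the reads of the pair in CM, where DM had 28.2% ± 4.20 and DM+Met 25.1% ± 0.171. The DM calls of Bnip3 (−1.09, adjusted p 0.0501) and Mxi1 (−1.06, adjusted p 0.0555) were lost without CM 1. Against CM, the DM+Met call of Mxi1 was lost without CM 1 (−0.95), DM+Met 1 (−1.08) or DM+Met 2 (−1.17), and that of Bnip3l without CM 1 (−0.55), DM 1, DM 2 (−0.76 in both), DM+Met 1 (−0.77) or DM+Met 2 (−0.74) and by library totals (−0.36, adjusted p 0.164).

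Vegfa, P4ha1, Ankrd37 and Adm are further genes induced by low oxygen, of which Vegfa encodes an angiogenic growth factor, P4ha1 a collagen prolyl hydroxylase subunit and Adm the peptide adrenomedullin. Vegfa levels were 6.56 and 6.65 (CM), 6.10 and 6.99 (DM) and 6.25 and 6.37 (DM+Met). The DM libraries of Vegfa lay on either side of all others, and no comparison of it was called. Its DM+Met libraries lay below both CM libraries (−0.29, which turned to 0.10 by library totals). P4ha1 stood at 0.31 in DM against CM, with both DM libraries above (0.51 without DM 1 and 0.11 without DM 2), and at −0.83 and −0.52 in DM+Met against DM and CM, with both DM+Met libraries below, and none was called. Ankrd37 levels were 6.02 and 5.18 (CM), 5.27 and 4.93 (DM) and 4.56 and 3.89 (DM+Met). Ankrd37 fell in DM+Met against CM with a log2 fold change of −1.37 (SE 0.37, adjusted p 0.0328), and stood at −0.88 against DM, not called. That call was lost without CM 1 (−0.95), DM 1, DM 2 (−1.37 in both), DM+Met 1 (−1.71) or DM+Met 2 (−1.04), and by library totals (−0.99, adjusted p 0.0805). Adm was read 64 and 165 times (CM), 0 and 51 times (DM) and 16 and 37 times (DM+Met), with −2.53 in DM (adjusted p 0.0692) and −2.13 in DM+Met against CM, not called.

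**Figure D4:**
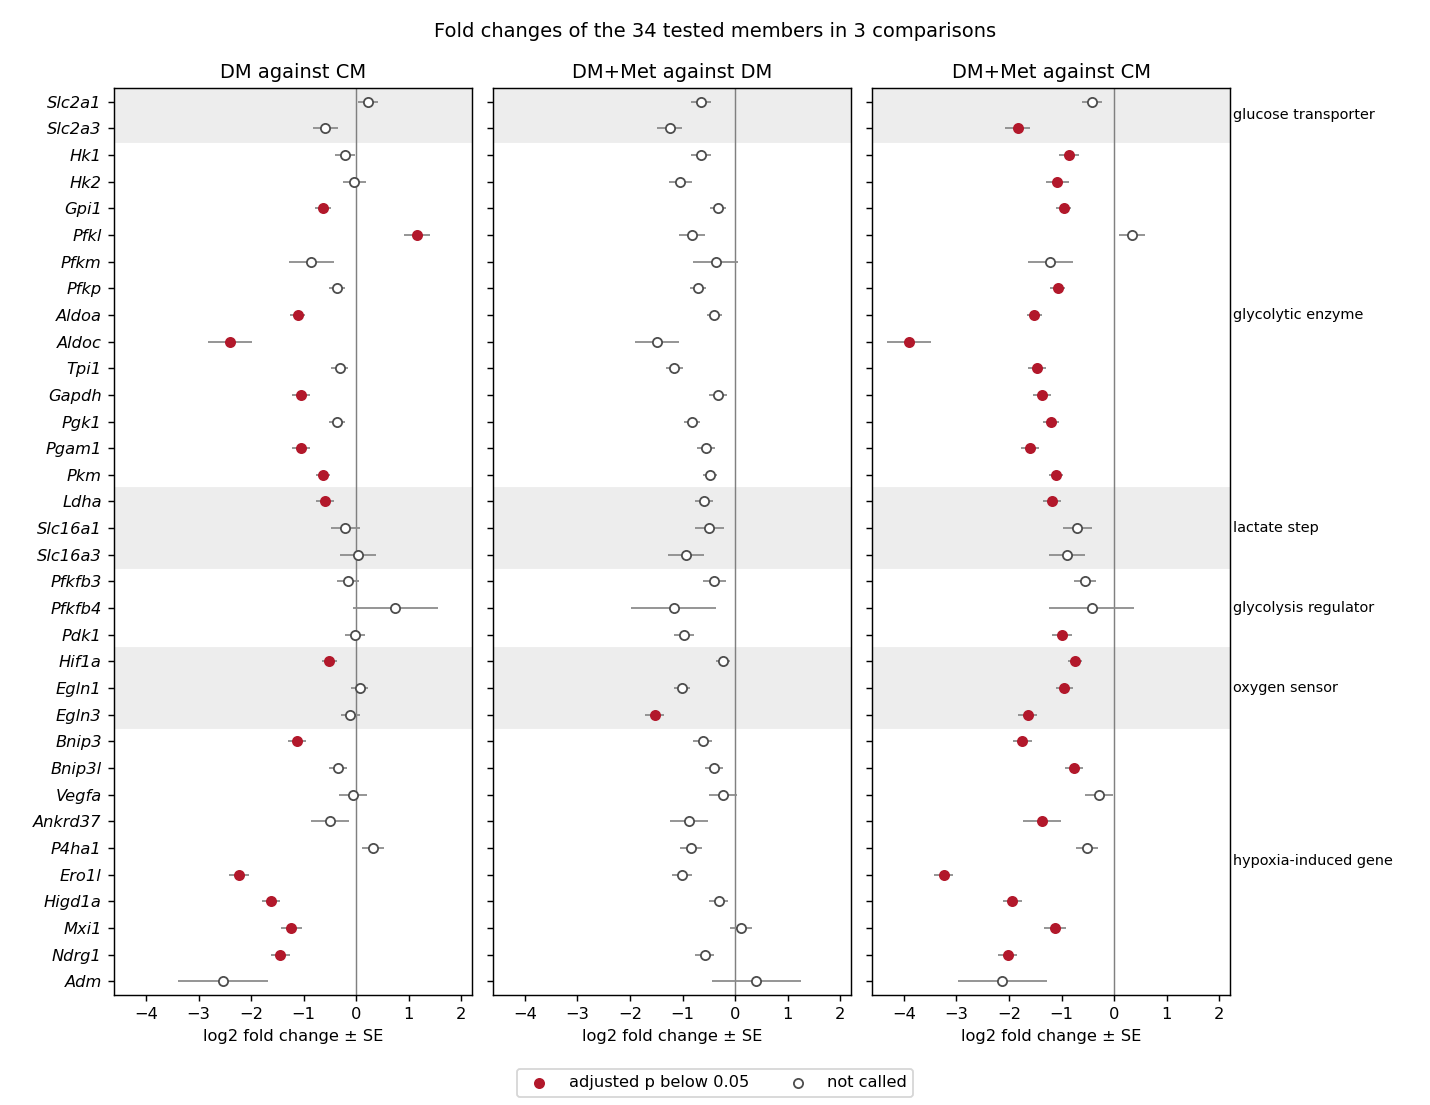
Log2 fold change (x axis) with its standard error for each of the 34 tested members (y axis, grouped by role) in DM against CM, DM+Met against DM and DM+Met against CM. Filled points passed an adjusted p of 0.05 in limma, 14, 1 and 24 of them, and in DM+Met against DM the points of Gpi1, Gapdh, Hif1a and Higd1a cross 0 by library totals.

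Lists of other genes of the pathway held 1 call each in DM against CM, where 16.9% of all rows were called, and 1 each in DM+Met against CM, where 15.3% were. Of 16 tested genes of further glycolytic forms and neighbouring steps, 1 rose in DM, Adpgk, an ADP-dependent glucokinase gene (log2 fold change 1.78, SE 0.50, adjusted p 0.0365), and 0 fell. In DM+Met against CM 1 fell, the phosphoglucomutase gene Pgm2 (−1.61, SE 0.22, adjusted p 0.00141). Among 12 genes of pyruvate entry into mitochondria, 1 fell in both media against CM, Pdk3, which encodes another pyruvate dehydrogenase kinase (−1.28, adjusted p 0.0130 in DM, and −1.73, adjusted p 0.00287 in DM+Met). Of 8 pentose phosphate genes, 1 fell in both, Tkt for transketolase (−1.79, adjusted p 0.00238, and −1.73, adjusted p 0.00229). The medians of these lists in DM against CM were −0.05, −0.17 and −0.49, and in DM+Met against DM −0.14, 0.16 and 0.03. They held 0 calls in DM+Met against DM, where 0.0548% of all rows were called.

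Of all rows tested, 9.07% were called lower and 7.8% higher in DM against CM, and 8.36% and 6.92% in DM+Met against CM. In DM+Met against DM, 0.0548% were called. Among 13 further components of the HIF pathway, Vhl, whose product binds hydroxylated HIF-1α, fell in DM (−1.28, SE 0.36, adjusted p 0.0354) and in DM+Met (−1.23, adjusted p 0.0442) against CM. Tceb1, for a partner of VHL, fell in DM+Met (−0.84, adjusted p 0.0323), and Ep300, for a coactivator of HIF-1, rose (0.74, adjusted p 0.0296). The other hypoxia-induced genes, a list of 42 of which 37 were tested, had 12 lower and 3 higher in DM, 16 lower and 1 higher in DM+Met against CM, and 0 called in DM+Met against DM. Their medians were −0.44, −1.14 and −0.61, against 0.07, 0.06 and 0.01 over all rows. The greatest falls in DM were in Selenbp1 (−3.77, adjusted p 0.00165), the collagen lysyl hydroxylase gene Plod2 (−2.32, adjusted p 0.0323), the transcription factor gene Nfil3 (−2.02, adjusted p 0.00750) and Tfrc, for the transferrin receptor (−1.65, adjusted p 6.93e-04). For DM+Met against CM, Selenbp1 stood at −4.86, Nfil3 at −2.78, Insig2 at −2.24 and Plod2 at −2.18, all called. Of 4 tested MondoA glucose-response genes, 1 rose, Txnip, whose product limits glucose uptake (1.82, SE 0.18, adjusted p 3.57e-04 in DM, and 1.55, adjusted p 5.18e-04 in DM+Met).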

How the data were processed

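RNA of activated CD4 T cells, kept in CM, DM or DM+Met, was sequenced from the 3′ end (Lexogen QuantSeq, 500 ng total RNA), with 2 libraries per medium. The deposited values are log2 of TMM-scaled CPM plus 1, to 3 decimals, made by the authors. The submitters' processing notes name Bowtie2, bedtools and mm10, and the annotation, counting rule and strand setting are not given in the sources used here. The values step by whole reads, with at least 99.776% of those up to 300 reads within 0.1 of a whole number, so read numbers were recovered from them. Rows with at least 0.946 CPM in 2 libraries and 15 reads in all were kept, which left 12770 of 23282. The deposited log2 values of the 3 media were fitted in 1 model with limma 3.58.1 (R 4.3.3, lmFit and eBayes with a variance trend), two-sided, with Benjamini-Hochberg adjustment over all rows and a threshold of 0.05. The script was run on simulated counts with a fixed dispersion and large changes. That run checks the code and not the error rates in these libraries. The pseudocount of 1 understates fold changes of low genes. Figures and counts used Python 3.11.15. Intervals and read numbers cover counting error only, since reads are not independent molecules.

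Every member is accounted for. Fold changes, standard errors and adjusted p are given for members called in a comparison, fold changes alone for others whose libraries did not overlap, and per-library levels for called members and for Slc2a1, Hk2, Pfkfb3, Pkm, Ldha, Gapdh, Hif1a, Egln1, Egln3, Vegfa, Bnip3 and Slc16a3. From other lists, up to 4 called genes with the greatest change and a mean of at least 10 CPM are named. The members and lists were chosen with earlier results of these data known. Alternatives were other scalings, filters, pseudocounts, limma-voom, no variance trend, 2 media only, a replicate block, near-identical copies summed, and each library left out.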

Additional observations from a re-analysis of the deposited data

How the results depend on the processing

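The number of members called in DM against CM was 6 without the variance trend and 6 to 10 with 1 library left out, the lowest without CM 1. Their median log2 fold change was −0.28 by library totals without Rn45s, −0.37 without the filter and −0.495 with copies summed, and −0.45 to −0.42 with 1 library left out. In DM+Met against DM, 5 members were called with at least 10 reads in every library, 3 in limma-voom, 2 with a pseudocount of 5, and 0 without the filter, without the variance trend, with only these 2 media, and with any 1 library left out. The median there was −0.27 by library totals, −0.67 by library totals without Rn45s, and −0.71 to −0.55 with 1 library left out. In DM+Met against CM, 12 members were called without the variance trend and 13 to 21 with 1 library left out, the lowest without DM+Met 2. The median was −0.72 by library totals, −0.998 without Rn45s, −1.06 with a pseudocount of 5, and −1.12 to −1.10 with 1 library left out. By library totals, Gpi1 (0.0355), Gapdh (0.0407), Hif1a (0.13) and Higd1a (0.0464) turned sign in DM+Met against DM, and Vegfa (0.10) in DM+Met against CM. Each of these turned sign in 1 of 17 alternatives. Leaving out a library lowers the degrees of freedom, and for the other settings the cause was not tested. Over all rows the calls in DM against CM numbered 2154, with 795 from these 2 media alone. In DM+Met against CM they numbered 1952, with 944 without the variance trend. Libraries with the same number did not deviate together over the rows tested (correlations −0.0247, 0.00476 and −0.0303). These values cannot show whether libraries of the same number shared a mouse or a culture. With a replicate block the members called were 14, 1 and 24, with Hif1a lost (adjusted p 0.0575) and Adm gained (0.0250) in DM against CM. Depth limits Adm, Pfkfb4 and Eno1, each with 10 reads or fewer in at least 1 library. Of the fold changes of single genes, 15 moved by over 1.5 times with 1 library left out, none of them called.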
